A study of Drosophila mojavensis with 127 samples.

Results

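Among 14528 transcripts measured in the cactus-feeding fly Drosophila mojavensis, 60 were chosen because their mean level was lowest in flies from Punta Onah by the widest margin. For each transcript, replicates were averaged within 32 groups and the 8 groups of a population were then averaged. The gap is the lowest of the 3 other population means minus the Punta Onah mean, on the log2 scale, where 1 unit is a 2-fold difference. The 60 transcripts with the largest gap were taken from the 13392 whose male and female means differed by less than 3 log2 units. The transcripts were thus chosen by their measured population means, and the gap is given as a description without a test.

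Total RNA was measured on 127 single-colour NimbleGen arrays, and arrays that shared a replicate number were averaged, which left 123 replicates in groups of 3 or 4. All flies were labelled wild-type, and each population was represented by 1 stock. The stocks were PO07 from Punta Onah in Sonora, OPNM08 from Organ Pipe National Monument in Arizona, and PP08 and SQ08 from Punta Prieta and San Quintin in Baja California. Within each stock, the groups were males or females, mated or nonmated, reared on pitaya agria cactus (Stenocereus gummosus) or on organ pipe cactus (Stenocereus thurberi). The labels give neither tissue nor age. Throughout, "organ pipe" means the cactus and "the Monument" the population.

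As background, D. mojavensis breeds in the fermenting tissue of columnar cacti, mainly agria in Baja California and mainly organ pipe in Sonora and Arizona. The hosts differ in tissue chemistry and in the microbes that ferment them, and the rearing cactus is known to affect adult mate choice and cuticular hydrocarbons. Mating also alters gene expression in female Drosophila, because seminal fluid proteins transferred by the male act on egg laying and remating. The transcripts are known here only by their identifiers. None of the 60 matched an entry of the supplied RefSeq gene table, so no gene name, function or sequence is given.

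The gap ran from 0.69 to 1.48 with a median of 0.83, and it was larger than 1 for 12 transcripts. Its median over all transcripts was -0.12. The lowest of the other populations was Punta Prieta for 30 of the 60 transcripts, the Monument for 20 and San Quintin for 10. The means of these 3 populations lay close together, with a median spread of 0.17, which was also the median over all transcripts. The largest gap belonged to FBtr0172070, with a population mean of 7.79 in Punta Onah against 9.34 at the Monument, 9.28 for Punta Prieta flies and 9.32 for San Quintin flies. FBtr0168666 came next with a gap of 1.47. FBtr0171045 was the last transcript inside the limit and FBtr0174887 the first outside it, and both gaps round to 0.69, so that the boundary separates transcripts that hardly differ.

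The population mean hides where the low values lie, and the libraries behind them stand apart. The low level was found in 12 arrays, those of the Punta Onah males labelled as reared on agria, mated and nonmated, and as mated on organ pipe. The average of the 60 transcripts in these 12 replicates ran from 7.83 to 8.49. In the 45 male replicates of the other populations it ran from 9.44 to 11.36, with a mean of 10.35 ± 0.44 (SD), so the ranges did not meet. The fourth group of Punta Onah males, nonmated on organ pipe, averaged 9.72 ± 0.29 (SD, n = 4), with replicates from 9.38 to 10.09. That group lay at the low end of the other male groups, whose means ran from 9.70 to 10.71. Punta Onah females averaged 9.75 ± 0.23 (SD, n = 16) and females of the other populations 9.99 ± 0.26 (SD, n = 46), with overlapping ranges of 9.38 to 10.34 and 9.35 to 10.50. Punta Onah females had the lowest mean of the 4 populations, the others being at 9.92, 9.96 and 10.08. The female groups are part of the population mean that chose the transcripts, so a low female level was favoured by the choice. Among mated agria females Punta Onah was at 9.86, with the Monument at 9.71, Punta Prieta at 9.84 and San Quintin at 10.10. In females the gap was above 0 for 39 of the 60 with a median of 0.09, against 27.1% of all transcripts. In males it was above 0 for all 60 with a median of 1.52, so the Punta Onah females were low by far less than the 3 male groups.

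**Figure D1:**
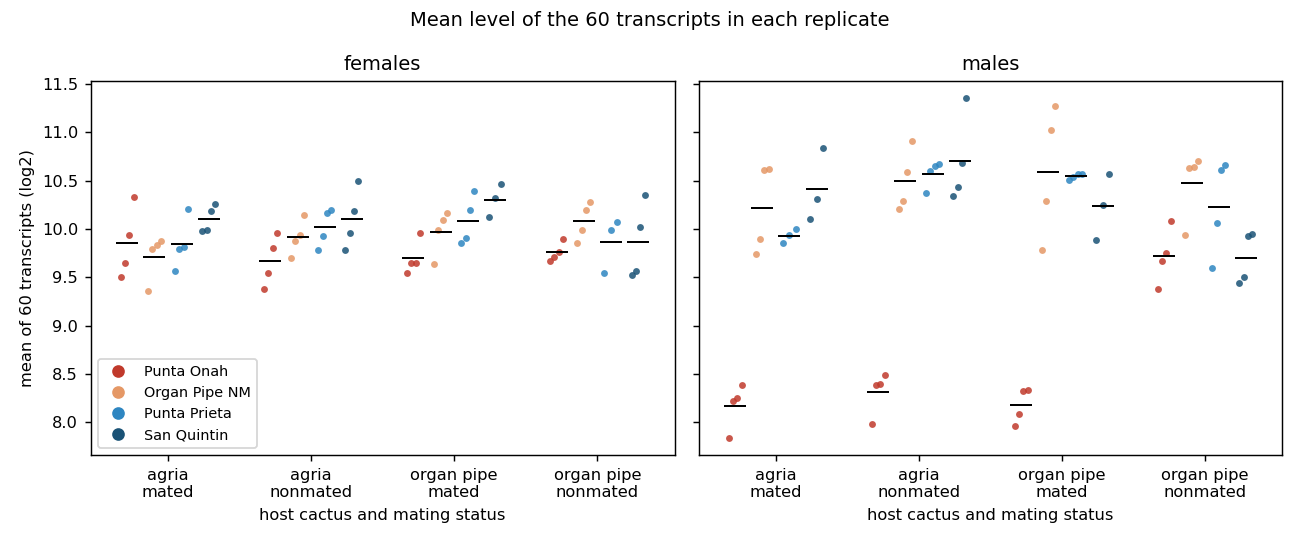
Mean log2 level of the 60 transcripts in each replicate (points) with the group mean (bars), by host cactus and mating status, in females (left) and males (right); colours are the 4 populations. The 12 replicates of 3 Punta Onah male groups lie between 7.83 and 8.49, below every other replicate shown.

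The 3 low groups also differ from the fourth in transcripts outside the 60. The 20 transcripts that most clearly set Punta Onah females apart from the females of all other populations, none of them among the 60, were looked up in the Punta Onah males. Nonmated organ pipe males lay on the same side of all 3 other populations for 19 of the 20. Mated agria males did so for 9, nonmated agria males for 10 and mated organ pipe males for 8. In Punta Onah females 19 of the 20 were higher than in other females and 1 was lower. The share of all transcripts that lay on the same side is not given, so these counts are a description. One of the 20, FBtr0172428, averaged 12.97, 13.49 and 13.67 in mated agria, nonmated agria and mated organ pipe males and 13.19 in nonmated organ pipe males, against 9.17 to 12.59 in the replicates of other males. Another, FBtr0162622, averaged 11.06 in nonmated organ pipe males but 7.75, 7.28 and 8.50 in the 3 low groups, inside the range of 5.34 to 10.13 of other males. Both were chosen after their values were seen. In Punta Onah females the replicates ran from 10.77 to 13.58 for FBtr0172428 and from 9.99 to 11.9 for FBtr0162622. All 4 male groups of Punta Onah thus had a mean above the other males for the first transcript, and only nonmated organ pipe males did for the second.

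The root mean square difference between group means was taken over the 14468 transcripts that are not among the 60. In Punta Onah it was 0.25 between mated and nonmated agria males. Mated organ pipe males lay 0.28 from the nearer of these groups, and their largest distance in Punta Onah, 0.42, was to nonmated organ pipe males. Between nonmated organ pipe males and the other Punta Onah male groups it was 0.42 to 0.60, and between them and male groups of other populations 0.32 to 0.53. The 3 low groups lay 0.43 to 0.66 from male groups of other populations, whereas the male groups of those populations lay 0.18 to 0.61 from one another. Median array levels were 10.54 to 10.64 in the 12 replicates, 10.44 to 10.58 in nonmated organ pipe males and 10.41 to 10.59 in other males. Among other males the 60 averaged 10.02 in the 17 replicates with array medians of at least 10.54 and 10.56 in the 28 below that. Over the shared span of array medians, 10.54 to 10.59, the other males ran from 9.44 to 10.91 and 5 low replicates from 8.25 to 8.49. After aligning array medians 59 of the 60 were chosen again, with a median gap of 0.87. The titles of the 12 arrays are numbered 1 to 12 and a slide of this type holds 12 arrays. The labels do not say which arrays shared a slide, so a slide and these 3 groups cannot be told apart, and the part of the slide or of sample identity in the results below was not tested.

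**Figure D2:**
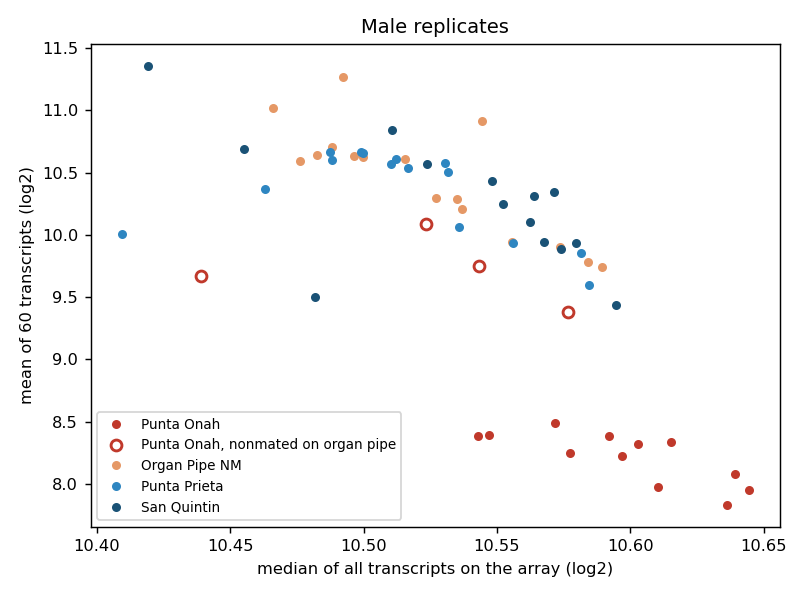
Mean log2 level of the 60 transcripts (vertical) against the median log2 level of all transcripts on the array (horizontal) for each male replicate; filled points are coloured by population and open circles are nonmated Punta Onah males on organ pipe. The 12 low replicates have array medians of 10.54 to 10.64, and at medians up to 10.59, reached by other males too, they lie at 8.25 to 8.49.

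Within each combination of sex, host and mating status the gap was recomputed, as a description. In males it was positive for all 60 transcripts in mated agria flies (median 1.56), nonmated agria flies (median 2.02) and mated organ pipe flies (median 2.07). Of all transcripts, 28.3%, 32.2% and 28.6% were above 0 there. In nonmated organ pipe males the median was 0.02, and 31 of 60 were above 0 against 25.9% of all. In females the median was -0.24 in mated agria flies, where 12 of 60 were above 0 (28.3% of all). It was 0.17 in nonmated agria flies with 43 of 60 above 0 (24.2% of all), and 0.21 in mated organ pipe flies with 49 of 60 (25.2% of all). In nonmated organ pipe females it was -0.04 with 27 of 60 (15.8% of all). Every Punta Onah replicate lay below every other male replicate of the same host and mating status for 50 transcripts in mated agria males, 59 in nonmated agria males and 58 in mated organ pipe males. The same held for 5.04%, 7.15% and 5.38% of all transcripts. In nonmated organ pipe males it held for 2 of the 60 (0.661% of all), and in females for 0 in mated agria flies (0.922% of all), 2 in nonmated agria flies (0.310%), 1 in mated organ pipe flies (0.551%) and 1 in nonmated organ pipe flies (0.213%). Since the rule rests on the same difference, nothing is read from these counts beyond where the gap lies.

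With the 12 arrays set aside and the gap taken over the 5 remaining combinations, its median fell to 0.17, 47 of the 60 transcripts stayed above 0 (28.8% of all transcripts did), and 18 stayed among the 60 largest gaps. These values are a description too, since the remaining arrays were also used to choose the transcripts.

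**Figure D3:**
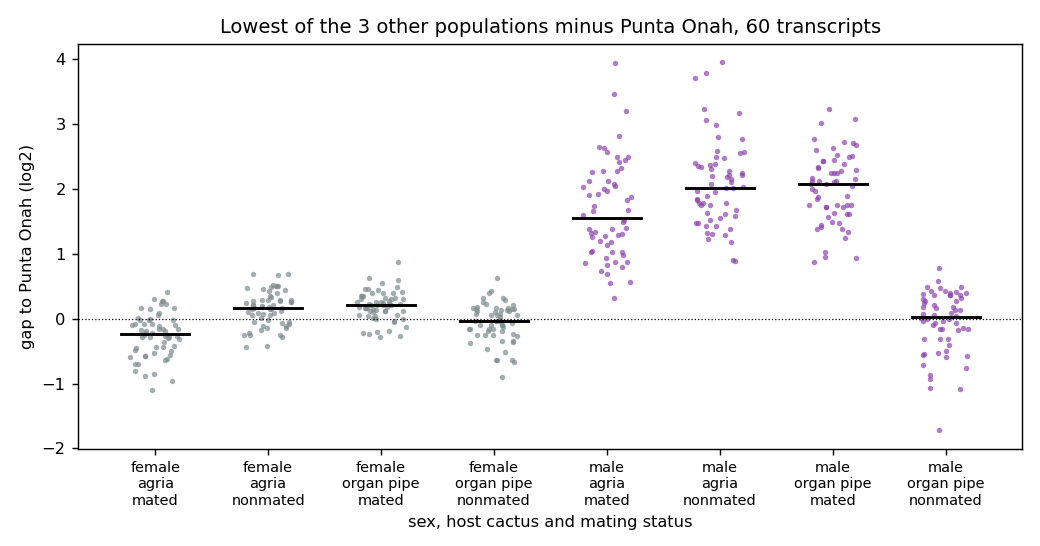
Gap of each of the 60 transcripts (points; log2, lowest of the 3 other populations minus Punta Onah) in the 8 combinations of sex, host and mating status, with the median as a bar; females are grey and males purple. The medians are 1.56, 2.02 and 2.07 in 3 male combinations and between -0.24 and 0.21 in the other five.

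FBtr0168369 had the largest host difference of the 60 among nonmated Punta Onah males. In Punta Onah males its 4 values were 8.21, 8.26, 8.33 and 8.64 when mated on agria, 8.14, 8.41, 8.45 and 8.61 when nonmated on agria, and 8.36, 8.73, 8.88 and 9.07 when mated on organ pipe. Nonmated organ pipe males gave 12.66, 12.81, 12.83 and 12.97. The other male replicates ran from 10.81 to 13.25 with a median of 12.43, and Punta Onah females from 12.64 to 13.39 with a median of 13.09. The 12 low values thus lay below every other male, and the 4 high ones lay among the males of other populations.

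FBtr0175156 showed the same order of groups. Its values in Punta Onah males were 11.67, 11.82, 11.88 and 12.53 in the mated agria group, 11.81, 11.97, 12.29 and 12.30 in the nonmated agria group, and 11.29, 11.30, 11.62 and 11.99 in the mated organ pipe group. In nonmated organ pipe males they were 14.11, 14.24, 14.32 and 14.39, inside the range of 13.86 to 14.92 of other males. Punta Onah females ran from 13.85 to 14.73, around a median of 14.33.

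FBtr0172070 has the largest gap and reached the bottom of the measured range. Its values were 5.31, 5.45, 6.14 and 6.25 in mated agria males, 5.14, 5.43, 5.72 and 5.75 in nonmated agria males, and 4.64, 5.91, 6.26 and 8.09 in mated organ pipe males. Nonmated organ pipe males gave 8.36, 8.36, 8.70 and 9.01, and other males 8.10 to 10.27. One mated organ pipe replicate, at 8.09, stood well above the other three of its group. Of the 60 transcripts, 13 had a mean below the 5th percentile of all transcripts in mated agria males, 14 in nonmated agria males, 10 in mated organ pipe males and 0 in nonmated organ pipe males. No background measurement was used here, so how close these values are to the detection limit was not tested.

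FBtr0168070 did not follow this pattern and was low in all 4 groups of Punta Onah males. Its means were 11.56, 11.28 and 11.74 in mated agria, nonmated agria and mated organ pipe males and 11.48 in nonmated organ pipe males. The other male replicates ran from 11.66 to 13.36 with a median of 12.57, so that nonmated organ pipe males, at 11.37 to 11.60, lay below all of them.

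**Figure D4:**
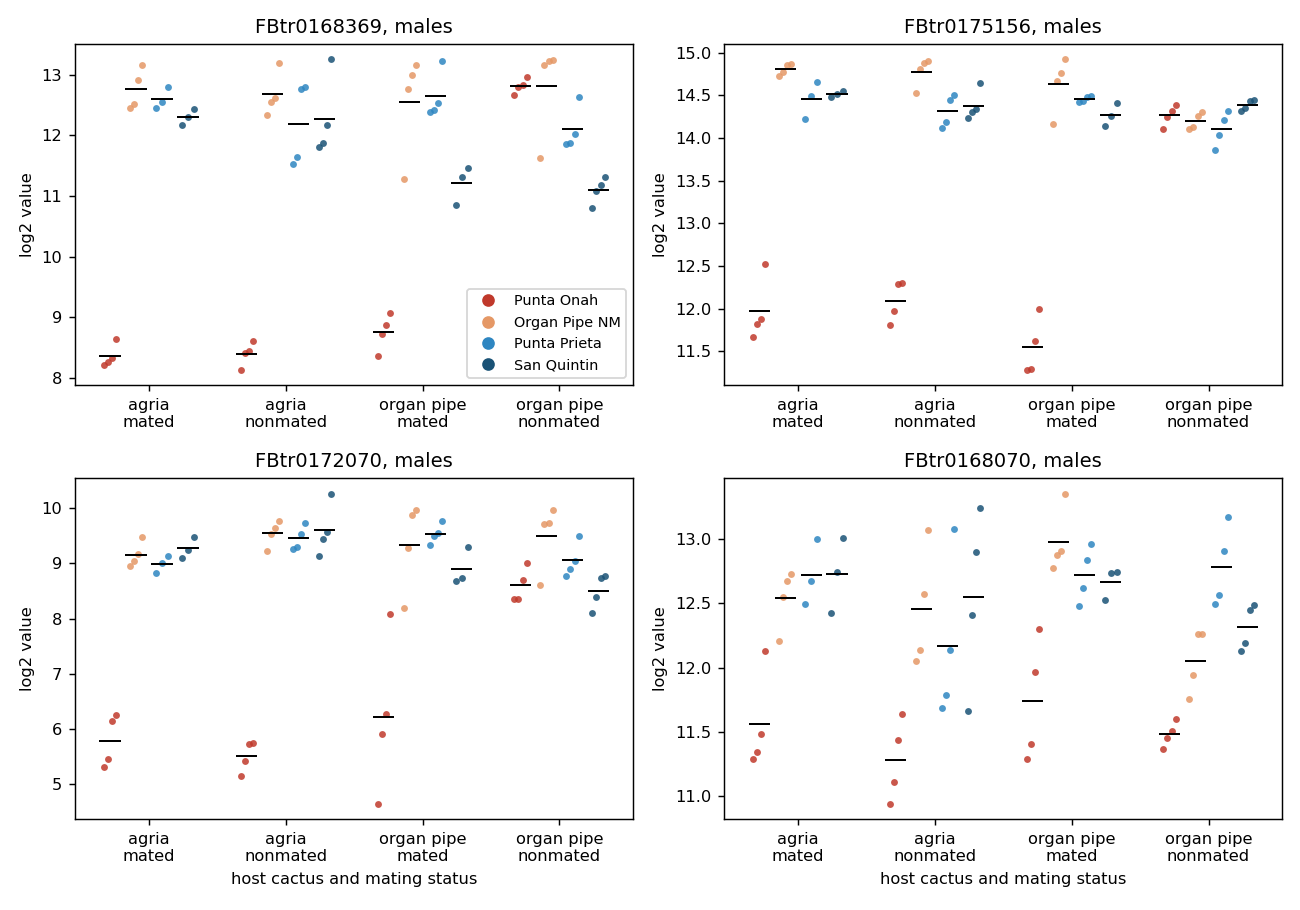
Log2 values of 4 of the 60 transcripts in every male replicate (points) with the group mean (bars), by host cactus and mating status; colours are the 4 populations. FBtr0168369, FBtr0175156 and FBtr0172070 are low in 3 Punta Onah groups and high in nonmated males on organ pipe, whereas FBtr0168070 is low in all 4.

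The sex difference in Punta Onah is given as a description, because the transcripts entered the list mainly through the low Punta Onah males, so that a lower male-minus-female difference was largely set by the choice. That difference had a median of -1.12 in Punta Onah, where it was negative for 50 of the 60. It was positive there for 10, against 42.4% of all transcripts. In the other populations its median was 0.24 and it was positive for 39, against 40.2% of all. The median difference between Punta Onah and the others was -1.53. In a limma fit across all transcripts with Benjamini-Hochberg adjustment, 59 of the 60 and 23.7% of all transcripts had a lower sex difference in Punta Onah at an adjusted p under 0.05, and nothing is read from this count. FBtr0168369 had a male-minus-female difference of -3.49 in Punta Onah and -0.99 elsewhere. For FBtr0175156 it was -1.82 in Punta Onah and -0.12 elsewhere.

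Within each host and mating status the sex difference is likewise given as a description. The sex difference was lower in Punta Onah at that threshold for 54 transcripts in mated agria flies (14.9% of all), 57 in nonmated agria flies (15.6%) and 59 in mated organ pipe flies (7.76%). In nonmated organ pipe flies 0 of the 60 were lower (0.0964% of all) and 1, FBtr0168369, was higher by 1.15 (0.0688% of all). The count in nonmated organ pipe flies was 0 when any 1 replicate number was left out and 31 with array weights, of which 8 were higher. The share of all transcripts called with array weights is not given, so nothing is read from the 31.

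The host comparison asks whether flies reared on organ pipe differed from flies reared on agria. In Punta Onah females limma called none of the 60 (3.73% of all were called), and the differences ran from -0.66 to 0.42. Of the 60, 3 had an unadjusted p under 0.05, as had 2619 of all 14528. A fit to females alone called 2 and array weights called 11. The share of all transcripts called in these other fits is not given here or below, so nothing is read from their counts. In Punta Onah males, averaged over mating status, 33 were higher on organ pipe and none lower, against 16.7% and 20.2% of all transcripts. The called differences ran from 0.40 to 2.40 log2 units. FBtr0168369 differed by 2.40 ± 0.17 (SE, adjusted p = 4.13e-21) and FBtr0166760 by 1.98 ± 0.15 (SE, adjusted p = 7.67e-20). In females of the other 3 populations limma called none of the 60 (0.0206% of all) and array weights called 8, with differences from -0.24 to 0.34. An unadjusted p under 0.05 was found for 5 of the 60 and for 636 of all. In males of these populations 1 of the 60, FBtr0169531, was lower on organ pipe by 0.56 (adjusted p = 0.0211; 0.158% of all were called lower), and array weights called 9. The host difference itself was greater in Punta Onah males than in the other males for 33 of the 60 (15.8% of all). In females it differed for none (0.668% of all), and array weights called 8. There 7 of the 60 had an unadjusted p under 0.05, against 2007 of all. The Punta Onah male groups are part of the population mean that chose the transcripts. The transcripts were chosen mainly through the 3 low groups, so the counts in Punta Onah males were favoured by the choice. Nothing is read from them beyond where the low values lie. Every value for Punta Onah males in this paragraph sets nonmated organ pipe males, together with 1 low group, against the other low groups.

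Split by mating status, the host difference lay almost wholly in nonmated males, in tests added after the values had been seen. Among nonmated Punta Onah males 38 of the 60 were higher on organ pipe and none lower (16.9% and 23.6% of all), with a median difference of 1.33. For 36 of the 60 the 4 organ pipe replicates lay above all 4 agria replicates, which held for 16.4% of all transcripts. FBtr0168369 was 21.3-fold higher on organ pipe (4.41 ± 0.24 log2, SE, adjusted p = 4.56e-29) and FBtr0175156 was 4.50-fold higher (2.17 ± 0.15 log2, SE, adjusted p = 2.30e-22). The 22 transcripts without a call had differences from -0.28 to 0.68. Among mated males, where both groups are low, 2 of the 60 were higher on organ pipe (0.977% of all) and none lower. These were FBtr0166760, by 0.95 ± 0.21 (SE, adjusted p = 0.00576), and FBtr0172609, by 0.97 ± 0.26 (SE, adjusted p = 0.0304).

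FBtr0166760 gave 7.06, 7.74, 7.91 and 8.80 in mated agria males and 8.19, 8.37, 9.15 and 9.63 in mated organ pipe males, so these groups overlapped despite the call. In nonmated males its values were 7.04 to 7.47 on agria and 10.10 to 10.48 on organ pipe, with no overlap.

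The mating comparison gave the mirror image, because it uses the same nonmated organ pipe group. Averaged over hosts, 36 of the 60 were lower in mated than in nonmated Punta Onah males and none higher (2.48% and 4.30% of all). FBtr0175156 was lower by 1.42 ± 0.11 log2 (SE, adjusted p = 1.04e-19) and FBtr0168369 was lower by 2.05 ± 0.17 (SE, adjusted p = 4.03e-17). The count was 17 when replicate 2 was left out. On organ pipe alone 51 were lower in mated males (7.28% of all), with a median of -1.48, and for 45 of the 60 all 4 nonmated replicates lay above all 4 mated ones (8.81% of all). There FBtr0175156 differed by -2.72 ± 0.15 (SE, adjusted p = 8.71e-29) and FBtr0168369 by -4.06 ± 0.24 (SE, adjusted p = 1.09e-26). On agria alone, where both groups are low, limma called none of the 60 and 0.117% of all transcripts, and the differences ran from -0.67 to 0.60. An unadjusted p under 0.05 was found for 3 of the 60 and for 1290 of all.

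The dependence of the host difference on mating status was tested directly, also after the values had been seen. Nonmated minus mated, the host difference in Punta Onah males was positive for 30 of the 60 at the threshold and negative for none (4.03% and 4.79% of all). FBtr0175156 had a value of 2.59 ± 0.21 (SE, adjusted p = 2.53e-17). The same quantity in males of the other 3 populations had a median of -0.83 over the 60 and was below 0 for 56 of them. Its share over all transcripts is not given, so nothing is read from that count. The difference between Punta Onah and the others takes in these negative values. It was called for 49 of the 60, all higher in Punta Onah (3.15% of all were called higher), with a median of 2.16. That count fell to 26 without replicate 1 and to 31 without replicate 4. Outside Punta Onah, the average of the 60 in organ pipe and agria males when nonmated was 10.48 and 10.50 at the Monument. It was 10.23 and 10.57 for Punta Prieta and 9.70 and 10.71 for San Quintin. When mated it was 10.59 and 10.22 at the Monument, 10.55 and 9.93 for Punta Prieta, and 10.23 and 10.42 for San Quintin.

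The comparisons in Punta Onah males share their groups and are not independent of one another or of the choice of transcripts. Without the 12 low arrays a single male group of Punta Onah is left, and no host or mating comparison remains among these males.

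**Figure D5:**
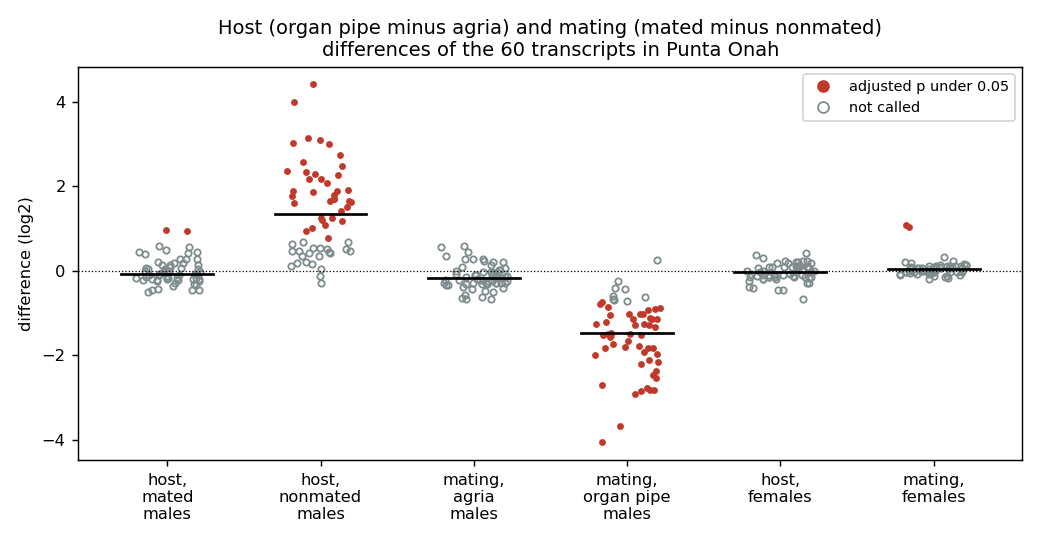
Host differences (organ pipe minus agria) and mating differences (mated minus nonmated) of the 60 transcripts in Punta Onah, in log2 units, each point a transcript and each bar the median; red points passed an adjusted p under 0.05. The medians are 1.33 for host in nonmated males and -1.48 for mating in organ pipe males, the 2 comparisons that set nonmated organ pipe males against a low group.

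The mating comparisons outside the 12 arrays gave 2 calls each. In Punta Onah females 2 were higher in mated flies and none lower (0.895% and 0.372% of all). FBtr0168070 rose by 1.09 ± 0.18 log2 (SE, adjusted p = 2.19e-05). Its values were 11.44 to 11.94 in mated and 10.37 to 10.99 in nonmated females on agria, and 11.58 to 12.16 in mated and 10.51 to 10.97 in nonmated females on organ pipe, with no overlap on either host. FBtr0172171 rose by 1.02 ± 0.24 (SE, adjusted p = 0.00737), with means of 13.09 and 12.34 on agria and 13.26 and 11.96 on organ pipe.

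Both were also the 2 transcripts called in females of the other 3 populations, where 2.08% of all transcripts were higher in mated flies and array weights called 5 of the 60. There FBtr0168070 rose by 0.76 ± 0.11 (SE, adjusted p = 8.59e-08) and FBtr0172171 by 0.59 ± 0.14 (SE, adjusted p = 0.00412). The rise of FBtr0172171 was an average and did not hold in every group. On agria its mated and nonmated means were 12.25 and 12.50 at the Monument, 13.23 and 13.52 for Punta Prieta, and 13.67 and 12.74 for San Quintin. On organ pipe they were 13.03 and 12.16, 13.63 and 13.17, and 13.71 and 11.91 in the same order. Whether the female mating difference itself differed between Punta Onah and the others gave no call among the 60 and none among all transcripts in limma (141 of all at an unadjusted p under 0.05). In males of the other populations 2 of the 60 were higher when mated (3.54% of all), whereas array weights called 19, of which 5 were higher. FBtr0171714 rose by 0.72 ± 0.14 (SE, adjusted p = 0.000109) and FBtr0168249 by 0.58 ± 0.14 (SE, adjusted p = 0.0024). The share of all transcripts called with array weights is not given for either sex, so nothing is read from those counts. In Punta Onah males the mating difference was lower than in the other males for 19 of the 60 (0.798% of all), which again rests on the nonmated organ pipe group.

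Replicates of the 60 transcripts scattered more widely than those of most transcripts. The median SD within groups was 0.36 in females and 0.50 in males, against 0.25 and 0.28 over all transcripts. After group means were removed, the 60 also varied together from replicate to replicate. The mean correlation between pairs of them was 0.456 over the 61 male replicates, 0.518 over the 45 without Punta Onah and 0.401 over the 62 female replicates, against 0.011 and 0.025 for pairs drawn from all transcripts in males and females. These correlations are a description, since transcripts on an array share its RNA and its processing. In the mean over all transcripts, correlations of opposite sign cancel. The first principal component of the other 14468 transcripts, with group differences left in, held 30.3% of the variance in males and 32.8% in females. Whether the shared variation is particular to the 60 was not tested.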

How the data were processed

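The deposited values are log2 expression values that the authors made with RMA (background correction, normalization and probe summary), per the submitters' processing notes, which name no version; their range of 4.64 to 15.78 is that of a log2 scale. Scanner files and slides were not used here. Arrays sharing a replicate number were averaged (4 pairs). With limma 3.58.1 in R 4.3.3, 1 mean per group was fitted to all 14528 transcripts (lmFit, contrasts.fit, eBayes; 91 residual degrees of freedom), with two-sided p-values adjusted by Benjamini-Hochberg over all transcripts and a threshold of 0.05. The script was tested on simulated data. No label ties replicates to separate cultures, so the p-values reflect spread among these samples that may be technical, and the number of arrays limits the precision. The transcripts named are the 2 with the largest gap, those at the limit and, for each comparison, at most 2 called in each direction with the smallest p; others are said to be chosen after seeing values. The members and comparisons were chosen with earlier results of these data known; 13 comparisons were planned and 10 added after seeing the values. Of 14528 identifiers, 0 matched the 15130 genes of RefSeq assembly ASM1815372v1. Alternatives were quantile normalization, alignment of array medians, removal of the dimmest 25% of transcripts, a fit within 1 sex, array weights, a replicate block, and leaving out each replicate number.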

Additional observations from a re-analysis of the deposited data

Results flagged for a closer look

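Differences between groups were called in several comparisons that test the difference itself with limma, given here with the share of all transcripts called in either direction. The sex difference in Punta Onah against the other populations was called for 59 of the 60 transcripts (50.5% of all), and within strata for 54 in mated agria flies (33.5%), 57 in nonmated agria flies (33.5%), 59 in mated organ pipe flies (15.2%) and 1 in nonmated organ pipe flies (0.165%). The low Punta Onah males through which the transcripts were chosen enter these sex comparisons, so the counts support nothing. In males, the host difference of Punta Onah differed from that of the others for 33 (35.2% of all) and the mating difference for 19 (1.02%). The dependence of the host difference on mating differed for 49 (6.31%), a count that was 26 without replicate 1 and 31 without replicate 4. Apart from the comparison in nonmated organ pipe flies, these comparisons all draw on the 12 arrays of 3 Punta Onah male groups. Each sex comparison within a stratum uses 1 of these groups. The sex comparison over all strata and the host and mating comparisons in males also use nonmated organ pipe males of Punta Onah. The transcripts were chosen mainly through the 12 low arrays, so the counts in males were favoured by the choice too.

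Single replicates stood far from the others of their group in 4 of 83 sets of 4 values that were examined, where chance gives about 1 in 20. The sets are the average of the 60 transcripts in each of the 27 groups of 4 and single named transcripts in the 4 Punta Onah male groups, so they share arrays. The gap to the nearest replicate, as a share of the group's range, is given for each. For the average of the 60 transcripts, replicate 2 of mated agria females from the Monument was at 9.35 against 9.79 to 9.88 (share 0.8291), and replicate 4 of nonmated organ pipe males from the Monument at 9.94 against 10.63 to 10.70 (share 0.9068). FBtr0169531 was at 11.10 in replicate 4 of nonmated organ pipe Punta Onah males against 10.33 to 10.40 (share 0.9128). FBtr0168249 was at 9.08 in replicate 2 of mated agria Punta Onah males against 9.30 to 9.33 (share 0.8623).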

How the results depend on the processing

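Of 314 recomputed counts and list values 276 stayed within their limits and 38 moved, and of 433 recomputed values of named transcripts 411 kept their side of the threshold, 22 lost their call and 0 reversed. Of the 60 transcripts, 43 were chosen again without the dimmest 25% (which removed 17 of them), 54 after quantile normalization and 52 to 55 without each replicate number. The host count in Punta Onah females was 2 in a fit to females and 11 with array weights, instead of 0, and its difference from other females gave 1 after quantile normalization, 2 in the fit to females and 8 with array weights. In other females array weights gave 8 host calls and 5 mating calls. In other males the host count was 2 after quantile normalization, 2 with the replicate block, 9 with array weights and 3 without the 2 male arrays whose sex-biased transcripts lay nearest the females, and the mating count was 19 with array weights. The host count in mated Punta Onah males was 1 in a fit to males. The sex difference in nonmated organ pipe flies gave 0 after quantile normalization, median alignment, removal of dim transcripts and with the replicate block, and 31 with array weights. The causes were not tested. The share of all transcripts called in each alternative is not given, so nothing is read from these counts about the 60. Without each replicate number in turn, counts ranged from 1 to 2 for mating in Punta Onah females, 1 to 3 in other females and 1 to 3 in other males, 17 to 33 for mating in Punta Onah males, 0 to 2 for host in other males, 0 to 2 for host in mated Punta Onah males, 0 to 1 for mating in agria Punta Onah males, 26 to 42 for the host-by-mating difference between Punta Onah and others, and stayed at 0 for the sex difference in nonmated organ pipe flies. Replicate numbers showed no pairing across the whole series. Deviations of same-numbered samples correlated at a mean of -0.002, with 606 of 1832 pairs over 0.1, and those of different-numbered samples at a mean of 0.001. Pairing within a population or a batch was not tested. With the replicate number as a block the other counts stayed within 1.5 times.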
